A study of Homo sapiens with 22 samples.

Results

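The sites of N-MYC and of WDR5 were set against each other within IMR-32 cells, an established human neuroblastoma line with an amplified MYCN gene. The 4 peak lists of untreated IMR-32 cells were taken from the 16 samples of the series with a peak list (22 samples in all). They are 2 ChIP-seq libraries with an N-MYC serum (replicates 1 and 2) and 2 with a WDR5 antibody (replicates 1 and 3). Each library pooled 3 immunoprecipitations. No agent was added to these cells and no gene was altered, so the comparison is between 2 proteins in 1 line, made with different antibodies. The N-MYC lists held 8286 and 5242 peaks and the WDR5 lists 1693 and 1258. A site was called where both lists of a protein had an overlapping peak, which left 4054 N-MYC sites and 993 WDR5 sites, and 431 regions where a site of each protein overlapped by at least 1 bp are called cobound. The lists hold no read totals, so the depth of each library is unknown, and a protein that is not listed at a gene was not called there, which does not show that it was absent.

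N-MYC is a transcription factor of the MYC family. It binds DNA as a dimer with MAX, with a preference for the E-box sequence CACGTG, and in neuroblastoma its gene is often amplified. WDR5 is a WD40-repeat protein without a DNA-binding domain of its own. It is a core subunit of the MLL/SET1 histone H3 lysine 4 methyltransferases, it binds MYC proteins through a surface on its WD40 propeller, and it is known for binding at a set of ribosomal protein genes.

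The difference between the sites was visible in the DNA under the strongest of them. Windows around the summits of 7 sites, from among the highest promoter sites of N-MYC alone, of WDR5 alone and of both together, are printed from GRCh37, plus strand, with CACGTG in capitals. Windows with the motif are centred on the copy nearest to the summit, and those that touch an untranslated region are 29 bases long instead of 61.
ENSG00000286874, a long noncoding RNA gene, N-MYC only, chr7:4681728-4681788: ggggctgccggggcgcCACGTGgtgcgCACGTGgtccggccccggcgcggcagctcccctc
QTRT1, N-MYC only, chr19:10812105-10812133: gtggtacggccCACGTGgttccgacagtc
EIF4G3, WDR5 only, chr1:21503261-21503289: cccctccccggaggaagcggcgcccttct
ERCC6L, WDR5 only, chrX:71459161-71459221: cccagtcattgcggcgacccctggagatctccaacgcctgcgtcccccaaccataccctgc
RPL5, cobound, N-MYC summit, chr1:93297736-93297796: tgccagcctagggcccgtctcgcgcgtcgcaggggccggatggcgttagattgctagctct
RPL10A, cobound, N-MYC summit, chr6:35436232-35436292: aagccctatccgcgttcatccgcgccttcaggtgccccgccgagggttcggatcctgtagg
RNPS1, cobound, N-MYC summit, chr16:2317957-2317985: ctgcggggctgaggagtggaccggcttca
Both N-MYC-only windows carried CACGTG, each with 2 copies within 100 bp of the summit. Neither of the WDR5-only windows carried it, nor did the 3 cobound windows, although N-MYC stood among its own highest sites there.

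Enrichment was distributed differently in the lists of the 2 proteins. The authors' fold is the ratio of signal at a peak to the local background, and it was used only within a list. In the N-MYC lists the median fold was 5.42 in replicate 1 and 5.995 in replicate 2, and the 99th percentile was 17.2 and 17.6. In the WDR5 lists the median was 6 in replicate 1 and 6.996 in replicate 3, but the 99th percentile was 219.5 and 193.8. A fold above 50 was given to 116 and 107 WDR5 peaks, which were 6.85% and 8.51% of their lists, and to 1 and 0 N-MYC peaks. The ratio of the 99th percentile to the median was 3.055 ± 0.1775 for N-MYC and 32.15 ± 6.29 for WDR5 (mean ± SD, n = 2 libraries each, exact permutation test over libraries, two-sided, p = 0.333, which is the smallest that 2 against 2 can give). All 4 lists had peaks around MYCN (chromosome 2, 14 to 18 Mb) and MEIS1 (65 to 68 Mb), both amplified in this line. These windows held 1.75% and 2.04% of N-MYC peaks and 3.31% and 2.94% of WDR5 peaks, against 0.114 to 0.409% in 6 libraries of the CHP-134 line. The sites there ranked very low, at a median percentile of 1.29 and 1.45 for N-MYC and 1.99 and 2.14 for WDR5, so values that lean on them are also given without them.

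In the full lists, which differ in length, a larger share of WDR5 sites than of N-MYC sites had the other protein. Of 993 WDR5 sites, 431 overlapped an N-MYC site (43.4%, exact Clopper-Pearson 95% interval 40.3 to 46.6%). Counted by single peaks, 413 of the 993 met N-MYC in both libraries, 216 in 1 library and 364 in none, and some of the 216 are among the 431 because a site spans the merged peaks of its libraries. Of 4054 N-MYC sites, 438 overlapped a WDR5 site (10.8%, interval 9.87 to 11.8%), and by single peaks 429 met WDR5 in both libraries, 342 in 1 library and 3283 in none. Nearly the same overlaps are divided here by 993 and by 4054 sites, so the direction follows from the lengths of the lists. With the 1258 strongest peaks of each list the order was reversed, with shares of 14.5% of WDR5 sites and 16.2% of N-MYC sites. Without WDR5 replicate 3, when every peak of WDR5 replicate 1 counted as a site, the share of N-MYC sites with WDR5 was 16.55%. Intervals here and below cover counting error only.

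Each protein ranked higher where the other was present, N-MYC more so than WDR5. Rank is given as the percentile of a peak's fold within its own list, where 100 is the highest peak. The median N-MYC percentile was 80.1 in replicate 1 and 69.5 in replicate 2 at sites with WDR5, and 67.5 and 56.9 at sites with no WDR5 peak in either library. The N-MYC sites that met WDR5 in 1 library lay between, at 77.2 and 64.9. The median WDR5 percentile was 70.9 in replicate 1 and 62.4 in replicate 3 with N-MYC, and 66.6 and 58.0 without it. The WDR5 sites that met N-MYC in 1 library stood highest, at 73.5 and 63.7. The gain was thus 12.6 ± 0.0796 percentile points for N-MYC and 4.34 ± 0.0425 for WDR5 (mean ± SD, n = 2 libraries each). Both libraries of a protein were scored on the same sites, so the SD leaves out differences in which sites are called. With 1 library standing for the protein, the gain was 21.2 for N-MYC without N-MYC replicate 2. For WDR5 it was 1.57 without WDR5 replicate 1 and 0.916 without WDR5 replicate 3.

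For WDR5 this small median difference hid a strong one at the top of the order. The 993 sites were split into deciles, 10 groups of nearly equal size, by their mean percentile. In the highest decile, 84 of 100 sites had N-MYC (84%, interval 75.3 to 90.6%), and only 4% had no N-MYC peak in either library. In the 8 deciles from the second to the ninth the share lay between 27% and 42.4%. In the lowest decile it was 60% (interval 49.7 to 69.7%), and 51.4% (interval 39.3 to 63.4%) once the 28 sites around MYCN and MEIS1 were set aside. The highest decile stood apart in other ways. Its median fold was 174.9 in replicate 1 and 136.3 in replicate 3, against 35.6 and 30.1 in the next decile, its median width was 1480 bp, 99% of its sites lay within 1 kb of a transcription start site (TSS), and 45 of the 100 lay at a gene for a cytosolic ribosomal protein. The ninth decile held none of these genes.

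The N-MYC order changed more evenly from low to high. From the lowest to the highest decile the median fold went from 3.85 and 4.16 to 12.99 and 12.5 in the 2 libraries. The share of sites with WDR5 was 6.17 to 13.1% in the first 9 deciles and 22.7% (interval 18.7 to 27.05%) in the highest. The share with CACGTG within 100 bp of the summit was higher in every decile than in the one below, from 14.5% (interval 11.3 to 18.3%) to 76.1% (interval 71.7 to 80.2%). In the windows 2 kb away it was 0.988 to 3.20% with no such order. Distances and copies were counted only at sites with CACGTG within 100 bp, 309 in the highest decile and 59 in the lowest. At these sites the summit lay a median of 12 bp from the nearest copy in the highest decile, against 21 bp in the lowest. Of them, 27.2% had 2 or more copies in the highest decile, against 6.78% in the lowest. WDR5 sites had no such relation to CACGTG, with 23.2% in the fourth decile and 3% in the highest. The plot of sites by decile shows these opposite courses.

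**Figure D1:**
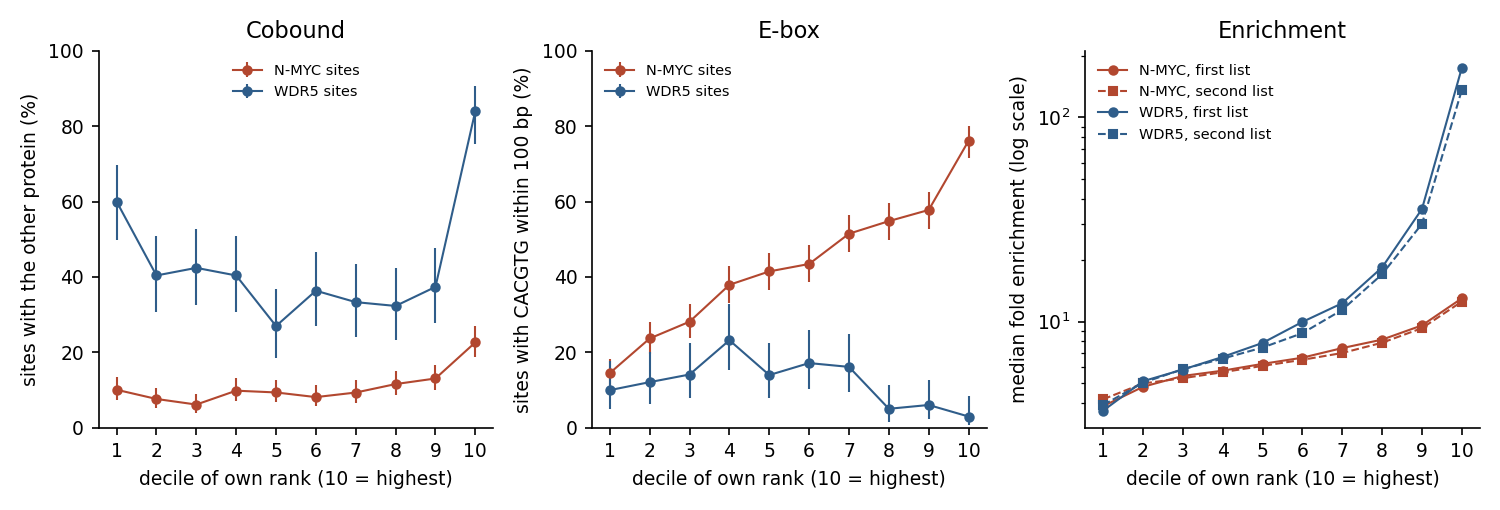
Share of sites with the other protein, share with CACGTG within 100 bp of the summit (bars, exact 95% intervals) and median fold enrichment on a log axis, for the 10 deciles of N-MYC sites (red) and WDR5 sites (blue) ranked within their own lists. The WDR5 share with N-MYC reaches 84% in decile 10, where CACGTG is at 3%, while the N-MYC share with CACGTG goes from 14.5% to 76.1%.

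At the cobound sites the ranks of the proteins were only weakly related. Spearman's rho across the 431 sites was 0.245, 0.229, 0.145 and 0.155 for the 4 pairs of an N-MYC with a WDR5 library (mean 0.194). At the same sites it was 0.752 between the N-MYC libraries and 0.924 between the WDR5 libraries. The sites of a pair share their libraries and their depth, so these values are descriptions and carry no test. The weak relation rested on 24 sites around MYCN and MEIS1 that ranked low for both proteins. Without them rho was 0.0657, within 1 kb of a TSS it was 0.0796, with equal numbers of strongest peaks it was -0.0490, and with peaks ranked by −log10 q-value it was -0.00275. Among the 259 cobound sites without CACGTG at the N-MYC summit rho was 0.3865, and among the 172 with it 0.0861, and outside the windows around MYCN and MEIS1 these values were 0.238 (238 sites) and 0.0488 (169 sites), a split chosen after seeing the data. The plot of the 2 percentiles shows the ribosomal protein genes as a band at the top of the WDR5 axis that spans much of the N-MYC axis.

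**Figure D2:**
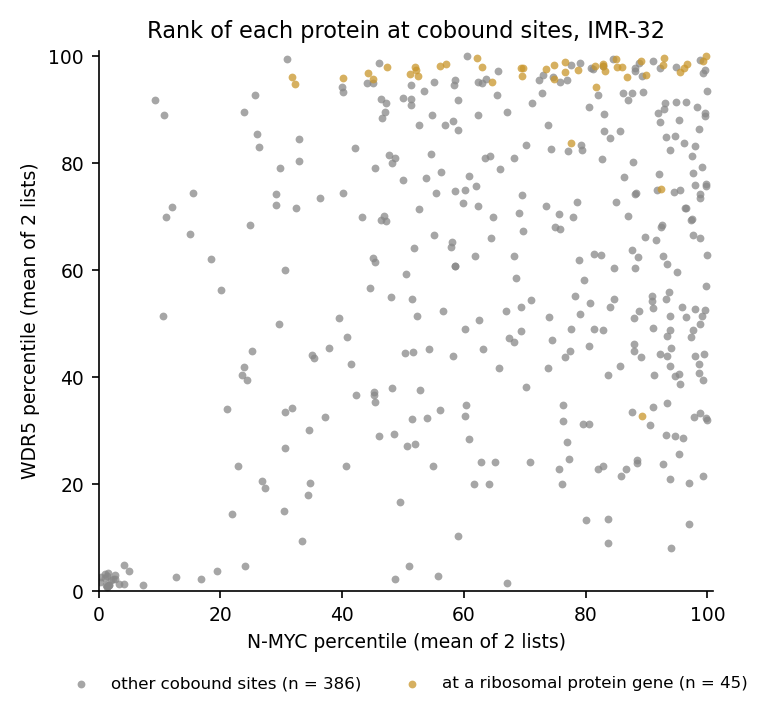
Mean N-MYC percentile (x axis) against mean WDR5 percentile (y axis) at the 431 cobound sites of IMR-32 cells, with the 45 sites at ribosomal protein genes in gold. The gold points lie mostly near the top of the WDR5 axis and are spread along the N-MYC axis, and the cluster near 0 on both axes holds most of the 24 sites around MYCN and MEIS1.

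Few of the highest sites were shared by the proteins. Of the 100 highest sites of each protein, 6 were shared, while the 100 highest in one list of a protein included 59 of those of its other list for N-MYC and 94 for WDR5. Over all sites, 10.8% of N-MYC sites and 43.4% of WDR5 sites had a site of the other protein, so only a part could be shared. Whether 6 differs from what unrelated orders would give was not tested. The 100 highest N-MYC sites carried CACGTG in 80 cases and included 3 ribosomal protein genes, 53 had no WDR5 peak in either library and 33 had a WDR5 site. The 100 highest WDR5 sites carried CACGTG in 3 cases.

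The order of N-MYC promoters (sites within 1 kb of a TSS) was led by GET4, which encodes a factor of the pathway that delivers tail-anchored proteins to the membrane. Its site (chr7:915687-916276, upstream of the gene) stood at percentiles 99.99 and 100, with folds of 33.8 and 48.7, and it had WDR5 at 94.45 and 92.4. The site of DNAAF5, a dynein assembly factor, had the highest fold of all N-MYC peaks in replicate 1, 55.3, and 45.9 in replicate 2, while WDR5 stood there at only 24.6 and 39.2. PLD6, a mitochondrial phospholipase, had N-MYC folds of 33.5 and 27.2 and no WDR5 peak. NME1, a nucleoside diphosphate kinase, followed with 31.2 and 24.05, and CDK4, the cyclin D-dependent kinase of the G1 phase, with 22.3 and 26.8. The rest of the 10 were the long noncoding RNA gene ENSG00000286874, DDX42, an RNA helicase, G6PC3, a glucose-6-phosphatase, RPL5 and NCL, which encodes nucleolin. All of the 10 except RPL5 had CACGTG within 100 bp of the summit, and 7 of them had WDR5 in both libraries.

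The order of WDR5 promoters was led by RPL5, a protein of the large ribosomal subunit. Its WDR5 folds of 307.3 and 276.9 were the highest in both lists, and N-MYC stood there at percentiles 99.9 and 99.7. CSNK1D, the delta isoform of casein kinase 1, followed with folds of 274.3 and 242.9, and N-MYC stood there at 83.25 and 37.6. BRD2, a bromodomain protein that binds acetylated histones, had WDR5 folds of 264.9 and 197.5 but N-MYC only at 55.25 and 6.57. EEF2, the translocation factor of translation elongation, had WDR5 folds of 221.3 and 233.4, with N-MYC at 89.2 and 79.85. The rest of the 10 were RPS15, RPL27, RPL15, RPL29, RNPS1, a splicing-associated RNA-binding protein, and NACA, which binds nascent chains at the ribosome. None of the 10 had CACGTG at the WDR5 summit, all 10 had N-MYC in both libraries, and 8 of the 10 summits fell in an intron, the other 2 in an untranslated region. Ranked by −log10 q-value, 5 of these 10 and 7 of the 10 N-MYC sites kept their place.

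Ordered by the mean of both proteins, RPL5 was again first and RPL10A second, with N-MYC at 99.7 and 98.8 and WDR5 at 99.4 and 98.6. RNPS1 was the third. SNHG15, SNHG17 and GAS5, which carry small nucleolar RNAs in their introns, were also among the 10, with RPS24, RPL12, RPL8 and GET4. The summits of the 2 proteins in their first replicates lay 15 to 67 bp apart at 9 of these sites, and 106 bp apart at GET4, the only one of the 10 with its WDR5 summit upstream of the TSS.

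Summits of the 2 proteins took different places around the TSS. Offsets are counted along the gene from the TSS nearest to the middle of a site, positive downstream, over sites within 1 kb. The median N-MYC summit lay at -39 bp in replicate 1 and -37 bp in replicate 2, and the median WDR5 summit at 98 bp in replicate 1 and 99 bp in replicate 3. The difference of 136.5 bp was much larger than the spread between libraries of a protein, with 2 N-MYC values below both WDR5 values (n = 2 libraries each, exact permutation test over libraries, two-sided, p = 0.333, again the smallest possible). It compares different sets of sites, 2835 for N-MYC and 824 for WDR5, and both libraries of a protein were measured on the same set. With the summits paired at cobound promoter sites, the median shift was 22.0 bp. Summits downstream of the TSS made up 40.9% and 40.5% for N-MYC and 62.3% and 62.7% for WDR5. With 1 library standing for the protein, the N-MYC median was -28 bp without N-MYC replicate 1 and -24 bp without N-MYC replicate 2. Measured from the canonical TSS of each gene alone, the medians were -62 and 124 bp, and as means over sites -11.7 and 62.7 bp.

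**Figure D3:**
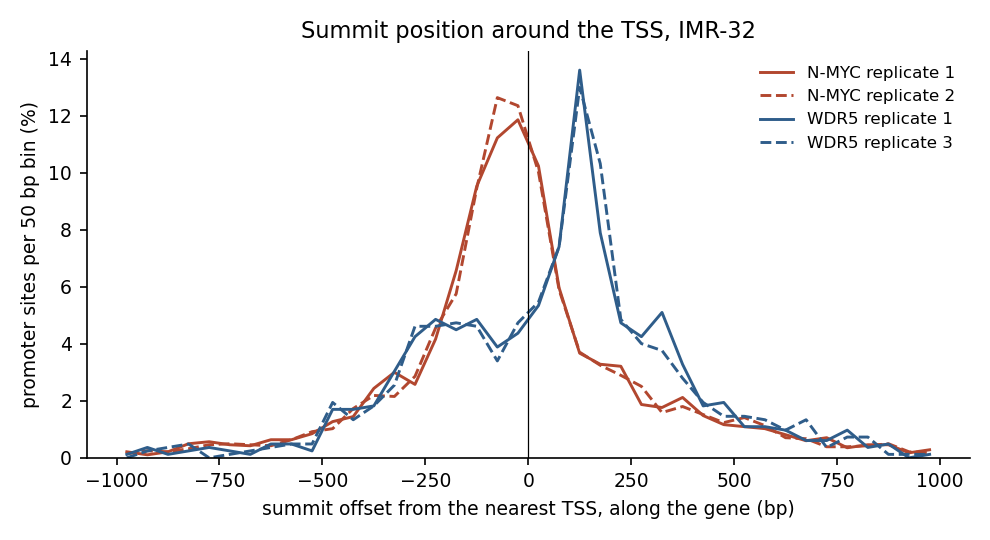
Distribution of summit offsets from the nearest TSS, along the gene, in bins of 50 bp, as the percentage of promoter sites of each library (N-MYC red, WDR5 blue, second replicate dashed). The N-MYC lines peak just upstream of the TSS and the WDR5 lines between 100 and 150 bp downstream, with replicates of a protein lying close together.

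The strongest WDR5 sites had the narrowest placement. In the highest decile, the middle 50% of WDR5 summits lay between 85.5 and 145.5 bp downstream of the TSS in replicate 1 and between 84.5 and 150 bp in replicate 3, and 74.7% and 73.7% of them lay within the first 250 bp. In the highest N-MYC decile the middle 50% of summits lay between -150.5 and 24.75 bp in replicate 1 and between -140 and 29 bp in replicate 2. WDR5 summits without N-MYC had medians of 114.5 and 122.5 bp and were far more spread, with the middle 50% between -197.25 and 278.5 bp in replicate 1. N-MYC summits without WDR5 lay at -47 and -45 bp.

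At the cobound sites the summits of the proteins were a median of 133 ± 6.40 bp apart (mean ± SD of 4 library pairs), more than the 32 bp between the N-MYC libraries and the 30 bp between the WDR5 libraries. Along the gene, WDR5 lay 22.0 ± 5.48 bp downstream of N-MYC, and 14 bp without N-MYC replicate 1. These values were not uniform over the sites. When the cobound sites were split into quintiles, 5 groups of nearly equal size, by WDR5 rank, the spacing was 159 to 225 bp in the lower 4 quintiles and 61.4 ± 5.95 bp in the highest, and the share of sites with summits within 100 bp of each other was 28.5 to 39.5% and 73.0%. In the highest quintile the distance was 64.5 bp within the pair of N-MYC libraries, against 29 bp in the other quintiles, and 14 bp within the pair of WDR5 libraries. Without WDR5 replicate 3 the spacing of the proteins in the highest quintile was 84.5 bp. As means over sites in place of medians, the spacing was 218.5 bp and the shift along the gene 53.5 bp. The quintiles were drawn after the values had been seen.

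The N-MYC summit took another place at the sites with the most WDR5. In the highest quintile the median N-MYC summit was 97 and 106 bp downstream of the TSS, beside WDR5 at 116 and 122 bp. In the lower 4 quintiles together it was at -40.5 and -35 bp, beside WDR5 at 81 and 83 bp. These 4 were not alike, with N-MYC at 0 and -1 bp in the lowest, -66.5 and -70.5 bp and then -55 and -38 bp in the next, and -8.5 and 0 bp in the fourth, and WDR5 between 3 and 153 bp. CACGTG lay within 100 bp of the N-MYC summit at 8 of 86 sites in the highest quintile (9.30%, interval 4.10 to 17.5%) and at 164 of 345 in the others (47.5%, interval 42.2 to 52.95%). The median N-MYC percentile in the highest quintile was 86.6 and 72.5 in the 2 libraries. In the quintiles below it was 59.5 and 41.95 in the lowest, which held 23 of the 24 sites around MYCN and MEIS1, and then 84.8 and 74.9, 79.5 and 77.2, and 82.0 and 67.2, so replicate 2 stood higher in the second and the third than in the highest. Of the 86 sites, 42 lay at ribosomal protein genes. The other 44 had the same features, with a spacing of 67.5 ± 6.49 bp, N-MYC at 94 and 102 bp, and CACGTG at 6 sites (13.6%, interval 5.17 to 27.3%).

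**Figure D4:**
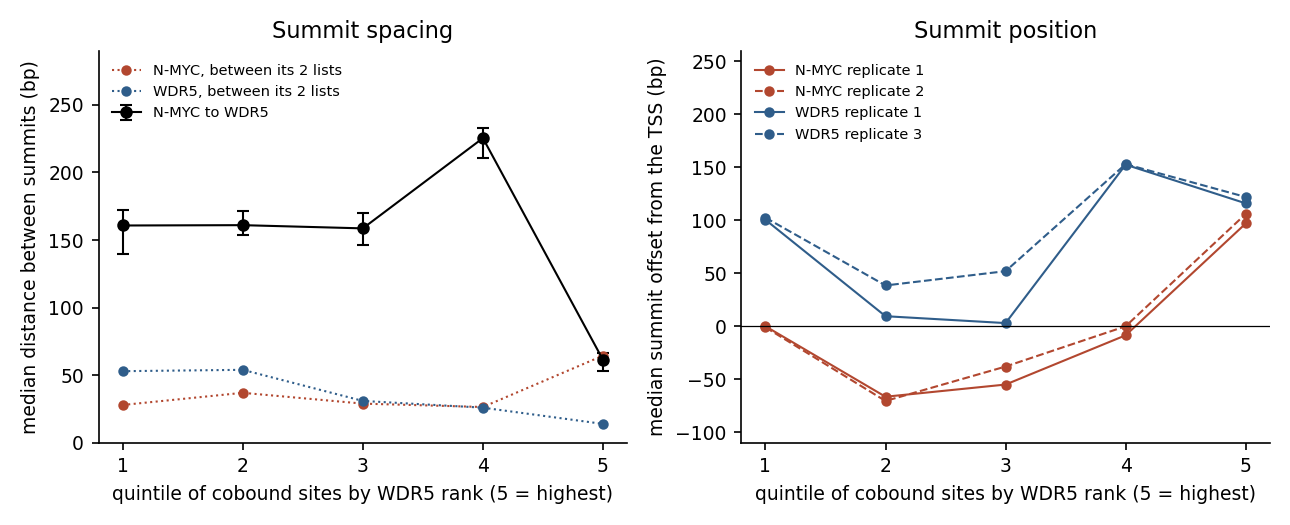
Left, median distance between the N-MYC and WDR5 summits (black, mean of 4 library pairs, bars from lowest to highest pair) and between the 2 lists of 1 protein (dotted), by quintile of the 431 cobound sites ranked by WDR5. Right, median offset of each library's summits from the TSS. In the highest quintile the spacing is 61.4 bp and the N-MYC summits move from -40.5 and -35 bp, in the other quintiles together, to 97 and 106 bp.

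Summits were also measured from the motif. At the 132 cobound sites with exactly 1 CACGTG in the site, the N-MYC summit was a median of 41 and 38 bp from it and the WDR5 summit 244 and 254.5 bp. At the 111 such sites in the lower 4 quintiles the N-MYC summit was 26 and 27 bp from the motif. At the 21 in the highest quintile it was 267 and 334 bp away, and WDR5 345 and 350 bp. The motif could lie anywhere in a site, and wide sites allow longer distances. The median width was 1480 bp in the highest decile of WDR5 sites and 441 to 1022 bp in the others. Whether the longer distances exceed those that width alone would give was not tested. Over classes of sites, CACGTG lay within 100 bp of the summit at 43.0% of the 3283 N-MYC sites without WDR5 (interval 41.3 to 44.75%), at 39.9% of cobound sites, measured at the N-MYC summit (interval 35.25 to 44.7%), and at 2.47% of the 364 WDR5 sites without N-MYC (9 sites, interval 1.14 to 4.64%). The windows 2 kb away had it in 2.13% and 2.20% for the N-MYC-only and WDR5-only sites, so the WDR5-only sites lay at the level of those windows. Most WDR5-only sites are promoters, and windows 2 kb away need not be. At the 272 WDR5-only promoters the share was 2.94% (interval 1.28 to 5.71%), against 5.68% of windows around 19845 protein-coding TSSs.

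Promoters with N-MYC only reached the top of the N-MYC order, and those with WDR5 only did not reach the top of the WDR5 order, though the median percentile was close, 60.4 for N-MYC only and 59.3 for WDR5 only. A gene was counted where a site lay within 1 kb of one of its TSSs. Of 20136 protein-coding genes, 2975 had an N-MYC site (14.8%), 918 a WDR5 site (4.56%) and 491 both (2.44%). N-MYC only, with no WDR5 peak in either library, was found at 2110 genes (10.5%), and WDR5 only at 229 (1.14%). The count of genes with both was 750 without WDR5 replicate 3, that with N-MYC only was 3920 without N-MYC replicate 2, and that with WDR5 only was 421 without WDR5 replicate 3, 390 without N-MYC replicate 1 and 427 when N-MYC had only to be missing from its sites in both libraries. With the 1258 strongest peaks of each list these counts were 145, 400 and 567.

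The N-MYC-only order began with PLD6, at percentiles 99.98 and 99.9. ENSG00000286874 was second, and QTRT1, the catalytic subunit of the enzyme that places queuine in tRNA, was the third with folds of 23.6 and 23.1. It went on with SPRYD4, MAT2A, which makes S-adenosylmethionine, SGTA, a co-chaperone of tail-anchored proteins, SNX5, a sorting nexin, DYM, CYTH1, an exchange factor for ARF GTPases, and KLF16, a zinc finger transcription factor. All 10 had CACGTG within 100 bp of the summit, as did 84 of the first 100 such promoters.

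The WDR5-only order of promoter sites began with EIF4G3, a scaffold of translation initiation, at percentiles 95.6 and 93.4 with folds of 114.9 and 86.2. ACAD11, an acyl-CoA dehydrogenase, had folds of 90.6 and 78.6 at a site without N-MYC, but it was not counted as a WDR5-only gene because N-MYC was listed elsewhere within 1 kb of its TSSs in 1 library, and ERCC6L, a helicase of mitotic chromatin, 69.0 and 54.15. The others were the long noncoding RNA gene ENSG00000288759, SF3B6 of the U2 snRNP, DTNB, PPP2R5C, a regulatory subunit of protein phosphatase 2A, POLR1D, a subunit shared by RNA polymerases I and III, FMC1 and GET1, a membrane receptor for tail-anchored proteins, the last with folds of 37.4 and 47.7. None of the 10 had CACGTG, and 1 of the first 100 such promoters had it. The highest mean percentile was 94.5, against 99.9 for N-MYC only.

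Ribosomal protein genes were the group in which the proteins met most. Of the 80 genes for cytosolic ribosomal proteins, RACK1 included, 62 had N-MYC (77.5%), 49 had WDR5 (61.25%) and 45 had both (56.25%), against 14.8%, 4.56% and 2.44% of all protein-coding genes. By subunit, 31 of 47 large subunit genes and 14 of 33 small subunit genes had both. None had WDR5 only. At the 45 sites the WDR5 percentile ran from 54.25 over a median of 98.0 to 100 in replicate 1 and from 11.4 over 97.0 to 100 in replicate 3, with a fold above 50 at 42 sites in each library. The N-MYC percentile ran from 10.2 over 87.1 to 99.9 in replicate 1 and from 4.25 over 73.35 to 99.7 in replicate 2. WDR5 thus ranked near the top of its lists at nearly all of them, and the N-MYC rank was spread over most of its range. The WDR5 fold was less uniform than its rank. At the 42 sites it ran from 101.7 and 73.6 at RPL36A to 307.3 and 276.9 at RPL5. The 3 sites with a lower WDR5 fold were RPL4 (20.5 and 17.4), RPL23A (12.3 and 11.2) and RPS12 (6.36 and 4.20).

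The 31 ribosomal protein genes without a WDR5 site fell into 3 classes. N-MYC only was found at 12 genes, with a median N-MYC percentile of 82.1 in replicate 1 and 63.4 in replicate 2, and RPS29 among them had 60.8 and 14.5. Another 5 had N-MYC and a WDR5 peak in 1 library. The other 14 genes had no site of either protein. Apart from these 31, RPL11, RPL19, RPL39 and RPS4X had a WDR5 site with N-MYC in 1 library only. Their WDR5 folds were 115.8 and 91.9 at RPL11, 127.5 and 102.2 at RPS4X, 124.5 and 87.5 at RPL39, and 11.9 and 13.6 at RPL19.

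Other groups of the protein synthesis machinery had N-MYC more often than WDR5, and many of their members had neither. Both statements also hold for all 20136 protein-coding genes. Of these, 14.8% had N-MYC, 4.56% WDR5 and 2.44% both, and 16734 genes had neither. Of 59 nucleolar ribosome biogenesis factors, 43 had N-MYC (72.9%) and 9 WDR5 (15.3%), and 31 had N-MYC only, among them WDR43 and NOP14. NCL and NPM1, which encode the abundant nucleolar proteins nucleolin and nucleophosmin, were 2 of the 6 with both. Of 48 translation initiation and elongation factors, 26 had N-MYC, 11 WDR5 and 7 both, with the highest N-MYC at EIF4G1 (96.55) and the highest WDR5 at EEF2 (99.45). Of 23 small nucleolar RNA host genes, 15 had N-MYC and 7 had both, and N-MYC ranked high there, with a median percentile of 92.7 against 63.5 over protein-coding genes with an N-MYC site, although many host genes are noncoding. SNHG15 had the highest N-MYC (99.55) and SNHG9 the highest WDR5 (98.3), at a site shared with the ribosomal protein gene RPS2. Of 77 mitochondrial ribosomal proteins, 27 had N-MYC (35.1%) and 2 both (2.60%, near the share of all genes). N-MYC was highest at MRPL3 (97.3) and WDR5 at MRPL48 (93.05). Of 22 cytosolic aminoacyl-tRNA synthetases and their cofactors, 8 had N-MYC only and none both. For a list of 22, none with both is near the 2.44% of all genes. N-MYC was highest at AIMP2 (89.1, at a site shared with the DNA repair gene PMS2), and the single WDR5 site, that of NARS1, stood at 31.3.

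Over all protein-coding genes, 14.8% had N-MYC, 4.56% WDR5, 2.44% both and 1.14% WDR5 only. Among the groups outside protein synthesis, splicing factors came next in sharing. Of 60, 35 had N-MYC, 17 WDR5 and 15 both (25%), with RNPS1 highest for both proteins, and SNRPB, a core protein of the spliceosomal snRNPs, at 46.1 for N-MYC and 98.7 for WDR5. Of 83 cell cycle and replication genes, 26 had N-MYC, 16 WDR5, 9 both and 4 WDR5 only, namely CDK2, GMNN, GINS3 and E2F2. CDK4 had the highest N-MYC (99.8) and E2F3 the highest WDR5 (98.1). Of 86 DNA repair genes, 33 had N-MYC, 12 WDR5 and 8 both, with APEX1 highest for N-MYC (99.6) and ERCC4, a WDR5-only gene, highest for WDR5 (91.1). Of 25 chaperonin and heat shock genes, 19 had N-MYC (76%), 5 WDR5 and 4 both, with HSPD1 (98.7) and CCT4 (98.8) highest for N-MYC and WDR5. Of 30 nucleotide and one-carbon enzymes, 15 had N-MYC and 1, NME1, had both (3.33%, near the share of all genes).

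Lower N-MYC shares than in the groups above were found in oxidative phosphorylation, proteasome and HOX genes. Of these, only the HOX genes lay below the shares of all protein-coding genes, 14.8% for N-MYC and 4.56% for WDR5. The share of all genes with both was 2.44%, so 0 or 1 gene with both in a short list differs little from it. The 76 oxidative phosphorylation subunits had N-MYC at 22.4%, WDR5 at 5.26% and both at 1 gene. NDUFS1 had the highest N-MYC there (95.3, at a site shared with the elongation factor gene EEF1B2). The 31 proteasome subunits had N-MYC at 19.4%, WDR5 at 6.45% and both at 0, with PSMA1 highest for N-MYC (80.6). The 39 HOX genes had N-MYC at 7.69% and WDR5 at 2.56%. Of 13 genes of the MYC, MAX and MXD network, 8 had N-MYC, with MXD3 highest (97.5), and only MYCN had both, at the low ranks of its amplified window (19.4 for N-MYC and 3.77 for WDR5). Of 19 genes of WDR5 and its MLL/SET1 partners, 6 had N-MYC, with KMT2D highest (90.9), and only DPY30 had both, with WDR5 at 95.2. Of 20 adrenergic neuroblastoma transcription factors, 4 had N-MYC and 1, MYCN, had WDR5. The lists and the members were chosen with results of these data known, so the counts are descriptions.

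**Figure D5:**
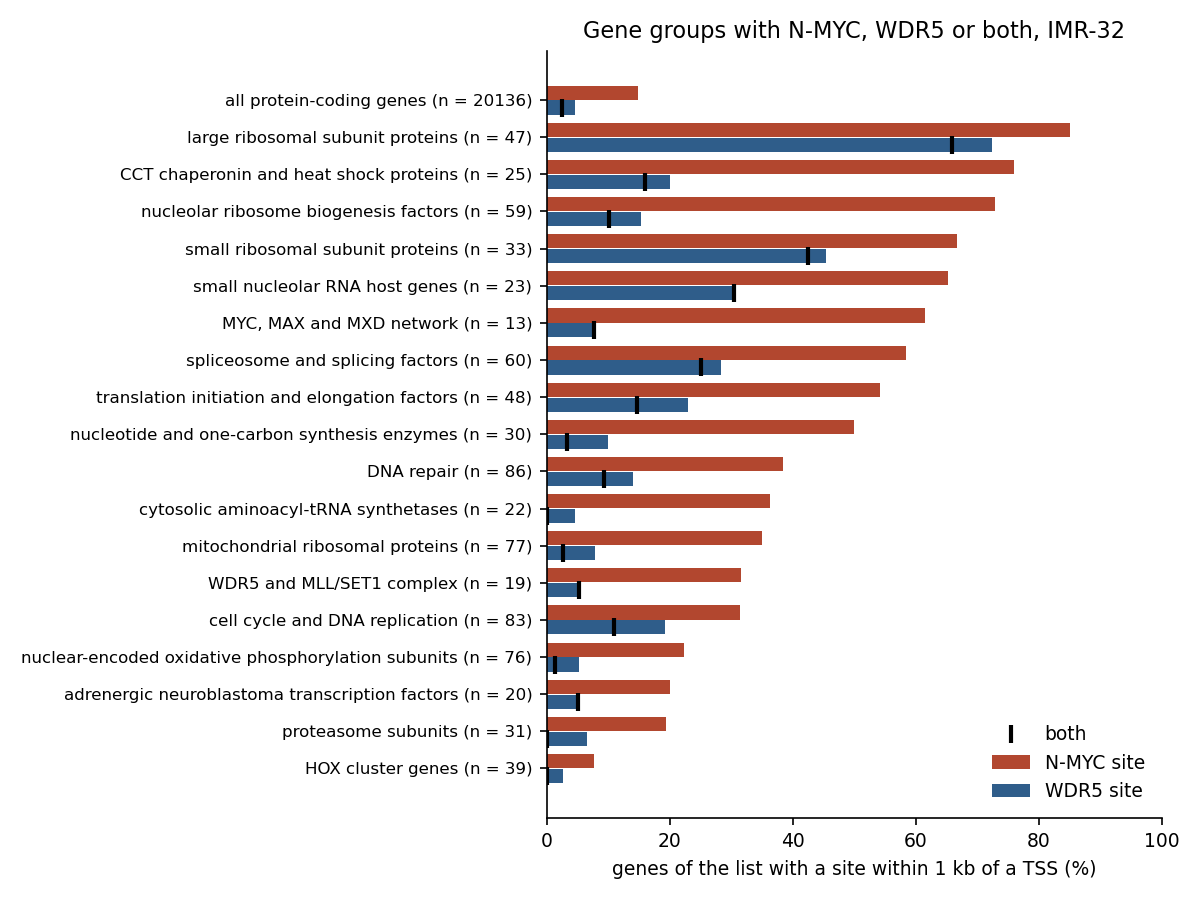
Percentage of the genes of each group with an N-MYC site (red), a WDR5 site (blue) or both (black mark) within 1 kb of a TSS, with all protein-coding genes at the top. Large ribosomal subunit genes stand at 85.1% for N-MYC and 72.3% for WDR5, while nucleolar biogenesis factors stand at 72.9% and 15.3%.

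The loci of the study's ChIP-QPCR panels showed the same range. Of 7 conserved WDR5-bound loci, all had WDR5 in both libraries and 6 had an N-MYC site. SNHG15 had N-MYC at 99.95 and 99.1 and WDR5 at 97.9 and 96.9, and RNPS1 had N-MYC at 99.2 and 98.2 and WDR5 at 99.5 and 99.05. CCT7 had N-MYC at 88.1 and 74.3 and RPS6 at 82.2 and 56.9, while the 2 N-MYC libraries put RPL35 at 97.5 and 6.44 and RPL17 at 28.5 and 76.3, so the N-MYC rank of these 2 differed widely between replicates. EIF4G3 had no N-MYC peak in either library. Of the 4 loci of the panel not bound by WDR5, METTL1 had N-MYC at 99.3 and 97.95 with a WDR5 peak in 1 library, and SURF6 had N-MYC at 97.9 and 74.3 with none. RPS12 had N-MYC at 94.7 and 83.9 and also WDR5, at 54.25 and 11.4. RPL10 had an N-MYC peak in 1 library only. The panels were chosen by the study for WDR5 binding known to it, and are no independent evidence.

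The order of the proteins was also set beside CHP-134, another N-MYC amplified neuroblastoma line, treated there with DMSO for 4 h (3 libraries per antibody). Those libraries are single reads and the IMR-32 libraries paired end reads. By the methods of the study they also differ in sequencing instrument and read length. The line, the DMSO treatment, the instrument and the read type cannot be told apart. The ratio of the 99th percentile of fold to the median was 12.3 ± 1.42 for WDR5 and 3.125 ± 0.171 for N-MYC in CHP-134 (mean ± SD, n = 3), against 32.15 and 3.055 in IMR-32 (exact permutation tests over libraries, two-sided, p = 0.2 for WDR5, the smallest that 3 against 2 can give when doubled, and p = 0.6 for N-MYC). WDR5 summits lay at a median of 37 to 60 bp downstream of the TSS in CHP-134 and 98 and 99 bp in IMR-32 (exact permutation test, p = 0.2, n = 3 and 2). N-MYC summits lay at -26 to -22 bp in CHP-134 and -39 and -37 bp in IMR-32 (exact permutation test, p = 0.2, n = 3 and 2). The groups did not overlap in these WDR5 and N-MYC positions, nor in the WDR5 ratio.

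In CHP-134, rho across 1426 cobound sites was 0.000575 to 0.205 over 9 library pairs. In the highest WDR5 quintile the spacing was 79 to 99 bp, the N-MYC summits lay at -8 to 20 bp, and 31.2% had CACGTG. In the other quintiles these values were 115 to 138 bp, -50 to -40 bp and 40.2%. The direction was that of IMR-32 in each of these, with a smaller difference between the quintiles, which was not tested. Of the 10 highest N-MYC-only promoters of IMR-32 cells, 3 met no WDR5 peak in any CHP-134 library (SNX5, DYM and KLF16), 5 met one in 1 library and 2 in 2 libraries. All 10 had N-MYC in 3 of 3 libraries there. Of all 2162 N-MYC-only promoter sites, 1241 met no WDR5 peak in CHP-134 and 297 (13.7%) met one in 2 or more libraries. N-MYC was listed in 2 or more libraries at 93.7% of them. Of the 10 highest WDR5-only promoters, 5 met no N-MYC peak in CHP-134 (ACAD11, ENSG00000288759, SF3B6, PPP2R5C and GET1) and 5 met one in 2 or 3 libraries, EIF4G3 among them. All 10 had WDR5 in 3 of 3 libraries there. Of all 272 WDR5-only promoter sites, 115 met no N-MYC peak in CHP-134 and 109 (40.1%) met one in 2 or more libraries. For the WDR5-only promoters the N-MYC counts among the 10 were thus near those of the whole class. For the N-MYC-only promoters the WDR5 counts were not, with no WDR5 peak at 3 of 10 against 1241 of 2162. WDR5 was listed in 2 or more libraries at 54.4% of the 272.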

How the data were processed

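N-MYC and WDR5 binding measured by ChIP-seq in untreated IMR-32 cells was analysed from 1 deposited peak list per library, with CHP-134 DMSO libraries beside it. According to the methods of the study, Cutadapt removed adapters, Bowtie2 placed reads on hg19, and MACS2 called peaks per library at a q-value of 0.05, with versions not given in the sources used here. The deposited lists give each peak's position, its summit, the fold (a linear ratio of signal to local background), the p-value and q-value as −log10, and a score that the authors' caller derives from the q-value. The fold ranked peaks, −log10 q chose the summit of a site, and the p-value and score were not used. The lists carry no read counts, so depth is unknown. The compound-treated CHP-134 libraries and the IgG samples were not used here.

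Peaks of a protein that shared at least 1 bp were merged, and regions with both libraries were kept, after the rule the study gives for DiffBind, which was not run. The TSS table held the GENCODE 44 basic set on GRCh37 (protein-coding and lncRNA), and every peak was read on that build. All 802 entries of the 20 gene lists were found in it. Sequence came from the GRCh37 genome. Promoter sites are those whose middle lies within 1 kb of a TSS. The text names the 10 highest promoter sites by mean percentile of N-MYC, of WDR5, of both, and of each protein with no peak of the other in either library, the panel loci, and the highest members of each list. The members and lists were chosen with earlier results of these data known, and the deciles, quintiles, motif distances and other motifs were added after values had been seen. Shares carry exact Clopper-Pearson 95% intervals, and exact permutation tests run over libraries. Nothing says that the replicates came from separate cultures beyond the experiment being repeated, so their spread may be technical. The code was tested on simulated lists. Python 3.11.15, pandas 2.3.3, numpy 2.4.6 and scipy 1.17.1 were used. Some sites and sequences are not reported here.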

Additional observations from a re-analysis of the deposited data

How the results depend on the processing

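No paired analysis was possible because the N-MYC libraries (replicates 1 and 2) and the WDR5 libraries (replicates 1 and 3) share only 1 replicate number. Of 185 values recomputed under 18 alternative settings, 88 moved by less than the spread between libraries, by less than their counting interval or, for counts, by less than 1.5 times, 95 moved by more and 2 changed sign. The 2 sign changes were both in the rank correlation, which was -0.0490 with equal numbers of strongest peaks and -0.00275 when peaks were ranked by −log10 q, 0.0657 without the windows around MYCN and MEIS1, and 0.0796 within 1 kb of a TSS. The cause of these moves was not tested, except that fewer sites entered under the first and the last 2. With no read totals, the depth that limits each list is unknown.

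Leaving out each replicate in turn, so that 1 library stands for its protein, the share of WDR5 sites with N-MYC ranged from 40.0 to 59.8% and that of N-MYC sites with WDR5 from 7.36 to 16.6%. The gain in percentile with the other protein ranged from 11.5 to 21.2 for N-MYC and from 0.916 to 4.54 for WDR5, the shift of WDR5 summits from N-MYC summits from 14 to 32 bp, the median offset of N-MYC from -38 to -24 bp and of WDR5 from 96 to 99 bp. Genes with both numbered 528 to 750, with N-MYC only 2225 to 3920 and with WDR5 only 265 to 421. The spacing was 64.5 to 84.5 bp in the highest WDR5 quintile and 143.5 to 164.75 bp in the others.

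With peaks of either library counted as sites, these shares were 59.1% and 12.2%, the gains 17.5 and 3.65, the shift 29.1 bp, the N-MYC offset -28.5 bp, genes with both 1268, with N-MYC only 4407 and with WDR5 only 477, and CACGTG lay at 30.8% of N-MYC-only and 35.2% of cobound sites. With equal numbers of strongest peaks, the shares were 14.5% and 16.2%, the WDR5 gain 3.45, the spacing 97.5 bp, the N-MYC offset -53.25 bp, the genes 145, 400 and 567, and CACGTG lay at 68.2% of N-MYC-only, 7.14% of WDR5-only and 63.0% of cobound sites. With a −log10 q of at least 4, the share of WDR5 sites with N-MYC was 38.6%, the WDR5 gain 4.27, the offsets -40 and 101 bp, and CACGTG at N-MYC-only sites 47.3%. With an overlap of at least 50%, the shares were 39.3% and 9.74%, the gains 14.6 and 5.72, the spacing 112.1 bp and the shift 15.25 bp. Without the MYCN and MEIS1 windows, the WDR5 share was 42.2% and the gains 14.8 and 6.73. Ranked by −log10 q, the gains were 16.5 and 7.33, CACGTG in the highest N-MYC decile 70.1%, and 5 of the 10 highest WDR5 promoters kept their place. Within 1 kb of a TSS, the gains were 14.7 and 6.10 and the spacing 123.9 bp. As means over sites, the gains were 7.37 and 3.03, the spacing 218.5 bp, the shift 53.5 bp and the offsets -11.7 and 62.7 bp. The offsets were -62 and 124 bp from canonical TSSs, -40 and 86 bp within 500 bp of a TSS and -35 and 102 bp within 5 kb. WDR5-only genes were 427 when N-MYC had only to lack a site. With CACGTG within 50 bp, the shares at N-MYC-only, WDR5-only and cobound sites were 35.7%, 1.10% and 34.8%, and within 250 bp 48.5%, 6.59% and 44.8%. Splitting the cobound sites by −log10 q, added after seeing the data, left the values of both quintile groups within their spread.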

Other observations

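Other short motifs were looked for within 100 bp of summits at promoters, on both strands, as descriptions chosen after values had been seen. CCGGAAG, the core of ETS family sites, lay at 12.1% of N-MYC-only promoters, 7.62% of cobound promoters in the lower 4 WDR5 quintiles, 2.33% of those in the highest quintile and 2.94% of WDR5-only promoters, against 11.3% of windows around 19845 protein-coding TSSs. The summits of the last 3 classes are WDR5 summits, which lie farther downstream. GGGCGG, the core of SP and KLF family sites, was found at 60.7% of N-MYC-only and 29.8% of WDR5-only promoters, against 53.8% of all TSS windows, and GCGCATGC, the core of NRF1 sites, at 5.09% and 0.368%, against 2.95%. AAGATGG, a core of YY1 sites, lay at 3.75% and 4.78%, against 5.35%, and TGACGT, a core of CREB sites, at 6.71% and 2.94%, against 6.88%. Of these motifs, none was more frequent at WDR5-only promoters than at all TSSs.

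Away from promoters, CACGTG lay at the summits of 44.4% of 1121 N-MYC-only sites (interval 41.5 to 47.4%), close to the 42.3% at N-MYC-only promoters, and at 1 of 92 WDR5-only sites.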
